A study of Mus musculus with 8 samples.

Results

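This report describes 10 genes that set epithelial or mesenchymal identity, chosen by name as Snai1, Snai2, Zeb1, Zeb2, Twist1, Ovol1, Grhl2, Elf3, Ehf and Esrp1. All 10 were found among 49315 gene identifiers of the deposited table, 45505 of which have a name in GENCODE vM39. Polyadenylated RNA of 4 mouse pancreatic ductal adenocarcinoma lines in culture, 6694c2, 2838c3, 6499c4 and 6419c5, was sequenced from the wild type (WT) and after C1galt1c1 knockout (KO), 1 library each, 8 libraries in all. C1galt1c1, also called Cosmc, is the chaperone of the core 1 O-glycan synthase, and the labels name the KO cultures for the Tn antigen, the truncated O-glycan left without it. Whether a KO culture is 1 clone or a pool, and how the knockout was made, the labels do not say. With 1 library per line and genotype, differences inside 1 line are unreplicated. The tests of KO against WT rest on the spread of the KO minus WT difference over the 4 lines. In the limma fits that spread is drawn toward the trend over all genes tested.

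Epithelial cells can lose their junctions and become motile, a change called the epithelial-mesenchymal transition (EMT). Snai1 and Snai2 (Slug), Zeb1 and Zeb2 are zinc finger repressors that bind the E-box CACCTG in promoters of junction genes such as Cdh1 (E-cadherin), and Twist1 is a basic helix-loop-helix factor that acts in the same direction. Grhl2 and Ovol1 oppose them: Grhl2, a Grainyhead-like factor, activates junction genes and restrains Zeb1, and the zinc finger factor Ovol1 represses mesenchymal genes. Elf3 and Ehf are ETS factors of glandular epithelium, and Esrp1 is an RNA-binding protein that keeps epithelial splice forms. In pancreatic cancer the balance of these regulators is read as the degree of differentiation, and Zeb1 is known to drive invasion in mouse tumours.

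The promoters below show the E-box in members and targets whose levels are given later. They are the 250 bases before the transcription start, from RefSeq on build GRCm38.p6, 5′ to 3′ on the strand of the gene, with each CACCTG and its reverse complement CAGGTG in capitals. Of the 10 members Elf3, Twist1, Snai1 and Zeb2 matched this promoter table by symbol. Elf3 is shown as the most abundant member, Snai1 because it holds the E-box that Snail factors bind, and Twist1 as the member that differed most between lines. Crb3, a cell polarity gene, and Epcam, an epithelial adhesion gene, stand for target genes.
Elf3, chr1:135258473-135258722, minus strand: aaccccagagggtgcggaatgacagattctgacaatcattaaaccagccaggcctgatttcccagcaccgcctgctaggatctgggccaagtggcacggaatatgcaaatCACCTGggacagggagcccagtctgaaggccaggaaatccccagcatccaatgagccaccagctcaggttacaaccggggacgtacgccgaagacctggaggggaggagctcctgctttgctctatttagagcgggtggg
Snai1, chr2:167537945-167538194, plus strand: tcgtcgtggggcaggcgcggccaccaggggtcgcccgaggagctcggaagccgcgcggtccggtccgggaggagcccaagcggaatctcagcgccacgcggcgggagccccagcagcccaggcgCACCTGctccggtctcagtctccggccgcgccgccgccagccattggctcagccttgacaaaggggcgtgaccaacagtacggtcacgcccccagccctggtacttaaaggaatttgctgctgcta
Twist1, chr12:33957421-33957670, plus strand: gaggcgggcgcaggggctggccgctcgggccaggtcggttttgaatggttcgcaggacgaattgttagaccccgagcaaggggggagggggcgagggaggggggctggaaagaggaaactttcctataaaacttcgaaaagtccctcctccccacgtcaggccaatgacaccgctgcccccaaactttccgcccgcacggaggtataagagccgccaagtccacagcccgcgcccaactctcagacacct
Crb3, chr17:57061951-57062200, plus strand: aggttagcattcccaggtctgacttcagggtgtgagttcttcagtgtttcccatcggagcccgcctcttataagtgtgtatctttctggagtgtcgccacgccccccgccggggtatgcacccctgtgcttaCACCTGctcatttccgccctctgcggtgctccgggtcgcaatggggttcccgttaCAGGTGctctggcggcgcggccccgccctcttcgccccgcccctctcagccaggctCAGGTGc
Epcam, chr17:87635729-87635978, plus strand: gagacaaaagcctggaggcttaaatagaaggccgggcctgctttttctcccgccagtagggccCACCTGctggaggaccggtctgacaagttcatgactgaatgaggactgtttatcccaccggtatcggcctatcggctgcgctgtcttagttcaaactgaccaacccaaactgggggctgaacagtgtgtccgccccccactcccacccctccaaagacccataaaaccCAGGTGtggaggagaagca

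In this window Elf3 holds 1 E-box, which begins 140 bases before the start, and Snai1 holds 1 at 126 bases. Twist1 and the 4 annotated starts of Zeb2 hold none. Crb3 holds 3, at 118, 63 and 7 bases before its first start, and Epcam 2, at 187 and 19 bases. Of all 32851 promoters of this length 17.2% hold an E-box on either strand, and of 27025 gene symbols 19.4% have a promoter that does. Of the epithelial target genes described below 15 of the 21 in the promoter table (71.4%) have one, and of the mesenchymal target genes 0 of 18. The epithelial list was drawn up from genes known as targets of these repressors, so the share is a description of the list. The Grainyhead-like motif AACCGGTT, its own reverse complement, was in 0.116% of all promoters and in 0 of the 7 promoters of members.

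Simple keratins and Cdh1 were abundant in the cells, and so was the mesenchymal gene Vim, at 1035 to 2296 TPM. The 8 ductal and epithelial markers examined (among them Krt7, Krt8, Krt18, Krt19, Epcam, Cdh1 and Sox9) reached 1 TPM in at least 1 library each. Their summed level was 13800 to 20100 TPM in WT and 13400 to 24200 TPM in KO, mostly Krt8, Krt18 and Krt19. Epcam was as low as 1.21 TPM and Krt7 as low as 21.6 TPM, both in the KO library of 6694c2. TPM are transcript shares per gene length that add up to 1000000 in a library. Of 9 fibroblast markers 5 stayed below 1 TPM in every library, and their sum was 6.45 to 11.9 TPM in WT and 6.22 to 10.1 TPM in KO. Of 8 macrophage and leukocyte markers 6 stayed below 1 TPM, Ptprc and Adgre1 among them, and the sum of 295 to 406 TPM in WT and 247 to 447 TPM in KO was mostly Cd14, at 238 to 418 TPM. Of 6 endothelial and 6 acinar markers 5 and 3 stayed below 1 TPM. C1galt1c1, the targeted gene, was at 37.0 to 54.2 TPM in WT and 10.9 to 19.0 TPM in KO, lower in each of the 4 lines. Reads assigned to genes were estimated from the smallest steps of low TPM values with a range over libraries of 41.05 to 62.83 in units of 1000000 reads. Identifiers without a name and small structural RNA held 13.6% and 10.6% of the KO libraries of 6694c2 and 6419c5, and 0.872% to 1.58% of the other 6. The median log2 difference KO minus WT of all 12900 genes tested was -0.15, and a relative limma estimate below is one with that median taken off. For a relative difference within a line the median of that line was taken off. It was -0.23 in 6694c2, -0.08 in 2838c3, -0.11 in 6499c4 and -0.16 in 6419c5. For a fit with lines left out it was the median of that fit.

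The members fell into 3 ranges of level. Elf3 was abundant in every library, at a median of 149 TPM, above 92.2% of the genes tested. Zeb1 and Snai2 were present in every library at medians of 12.1 and 5.54 TPM, and Twist1 and Ehf ranged from near 0 to over 50 TPM depending on the line. Snai1, Zeb2, Grhl2, Esrp1 and Ovol1 were low, below 1 TPM in every library but 1, the 2838c3 KO library with Zeb2 at 1.22 TPM. These 5 low members did not pass the filter of at least 1 TPM in at least 4 libraries and were not tested in the fit as reported.

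**Figure D1:**
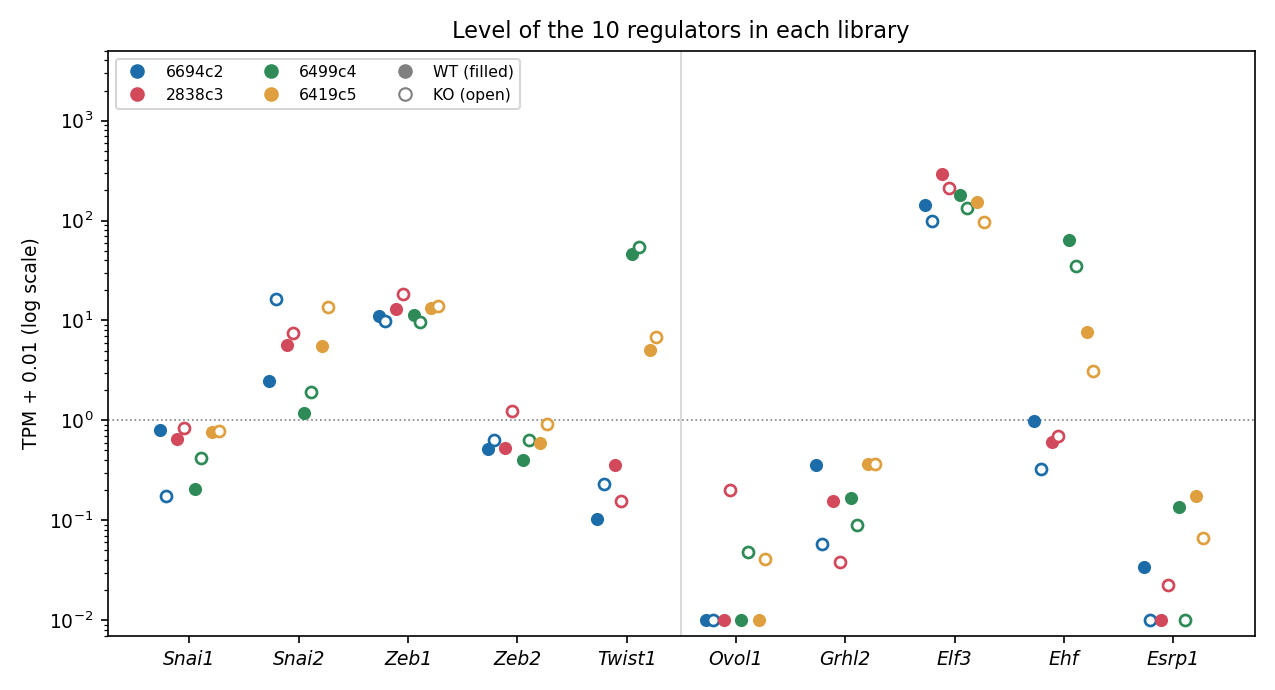
TPM (with 0.01 added, log scale) of each of the 10 regulators in the 8 libraries; filled points are WT and open points KO, coloured by line, and the dotted line marks 1 TPM. Elf3 lies between 97.7 and 295 TPM and Zeb1 between 9.56 and 18.2 TPM, while Ovol1 and Esrp1 do not exceed 0.189 and 0.163 TPM.

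Zeb1 (ENSMUSG00000024238) was the most even of the EMT-inducing factors. Its level was 11.2 TPM in WT and 9.82 TPM in KO of 6694c2, 12.9 and 18.2 TPM in 2838c3, 11.3 and 9.56 TPM in 6499c4 and 13.4 and 13.96 TPM in 6419c5. The 2838c3 KO library was the highest, WT and KO overlapped, and the highest and lowest libraries differed by less than the span of Snai2, Twist1 or Ehf. The mean was 12.2 ± 1.12 TPM in WT and 12.9 ± 4.08 TPM in KO (SD, n = 4 lines). The limma estimate of KO minus WT was 0.03 on the log2(TPM + 1) scale (SE 0.17, 95% interval -0.38 to 0.45, Benjamini-Hochberg adjusted p = 0.955), or 0.18 relative to all genes. Without 2838c3 its sign turned, at -0.11. In the order of lines 2838c3 (mean of 2 libraries 15.5 TPM), 6419c5 (13.7), 6694c2 (10.5) and 6499c4 (10.4), the first pair and the last pair overlapped. The limma F-test of the line terms gave an adjusted p of 0.287.

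Zeb2, the other ZEB factor (ENSMUSG00000026872, chromosome 2, 44873644 to 45007464, minus strand, GRCm39), was far below Zeb1. Its level was 0.502 TPM in WT and 0.626 TPM in KO of 6694c2, 0.523 and 1.22 TPM in 2838c3, 0.393 and 0.620 TPM in 6499c4 and 0.579 and 0.899 TPM in 6419c5. Every KO library was above the highest WT library, at 0.842 ± 0.285 against 0.499 ± 0.0778 TPM (SD, n = 4 lines). In the exact two-sided sign-flip permutation test over the 4 lines 2 of 16 sign patterns were as far from 0, which is the least this design can give and does not reach a p of 0.05. In a fit with no filter on low values the log2 difference was 0.29 (SE 0.12, unadjusted p = 0.0581, adjusted p = 0.769).

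Snai2 (ENSMUSG00000022676, chromosome 16, 14523425 to 14527252, plus strand, GRCm39) was higher in KO in each line. WT and KO were at 2.47 and 16.2 TPM for 6694c2, 5.61 and 7.40 TPM for 2838c3, 1.17 and 1.903 TPM for 6499c4 and 5.48 and 13.7 TPM for 6419c5. The KO level was thus 657% and 251% of WT in 6694c2 and 6419c5, and 132% and 163% in 2838c3 and 6499c4. KO libraries of the first pair also held the structural RNA given above, and its part in the difference was not tested. With that RNA left out and the libraries rescaled the estimate was 1.15. Levels of the genotypes overlapped across lines, at 3.68 ± 2.22 TPM in WT and 9.81 ± 6.44 TPM in KO (SD, n = 4 lines). The limma estimate was 1.07 (SE 0.34, 95% interval 0.25 to 1.88, unadjusted p = 0.0174, adjusted p = 0.556), or 1.21 relative to all genes, and 2 of 16 sign patterns were as far from 0 in the exact permutation test. It was 0.65 without 6694c2 and 0.38 without both 6694c2 and 6419c5. Among lines 6499c4 was lowest (mean of 2 libraries 1.54 TPM) and did not overlap 2838c3 (6.51 TPM), while 6419c5 (9.60), 6694c2 (9.34) and 2838c3 overlapped. The F-test of the line terms gave an adjusted limma p of 0.0817, and passed at 0.0226 without 6694c2, 0.0358 without 2838c3 and 0.0322 without both 6694c2 and 6419c5. It was 0.796 without 6499c4, 0.162 without 6419c5, 0.21 with no filter and 0.193 with no genotype term.

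Snai1 (ENSMUSG00000042821, chromosome 2, 167380113 to 167384734, plus strand, GRCm39), the founding member of the Snail family, did not follow its relative. Its level was 0.796 TPM in WT and 0.164 TPM in KO of 6694c2, 0.648 and 0.821 TPM in 2838c3, 0.195 and 0.409 TPM in 6499c4 and 0.763 and 0.767 TPM in 6419c5. These values correspond to 3 to 17 estimated reads per library, with 17 and 3 reads in WT and KO of 6694c2. The direction differed between lines, lower in 6694c2 and higher or level in the others, and in a fit with no filter the difference was -0.06 (SE 0.17, adjusted p = 0.919).

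Twist1 (ENSMUSG00000035799, chromosome 12, 34007645 to 34009828, plus strand, GRCm39) was highest in 6499c4. It was at 45.9 TPM in WT and 54.1 TPM in KO of 6499c4 and at 5.101 and 6.87 TPM in 6419c5. In 6694c2 it was at 0.0939 and 0.219 TPM and in 2838c3 at 0.350 and 0.145 TPM, which are 2 to 7 estimated reads per library. The ranges of 6499c4 and 6419c5 did not overlap each other or those of the other lines, and 2838c3 and 6694c2 overlapped. The F-test of the line terms gave an adjusted limma p of 0.000258, and of the 12900 genes tested 2178 (16.9%) differed between lines at an adjusted p under 0.05. Twist1 and Ehf passed the filter only through the 4 libraries of 6499c4 and 6419c5, so that they differ between lines follows in part from the filter. With no filter the adjusted p for Twist1 was 0.00708. KO minus WT was 0.13 (SE 0.18, adjusted p = 0.808), higher in 3 of the 4 lines and lower in 2838c3, where 7 reads in WT and 3 in KO were compared.

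Elf3 (ENSMUSG00000003051, chromosome 1, 135181306 to 135188999, minus strand, GRCm39), whose promoter with its E-box is printed above, was the most abundant member and was lower in KO in each of the 4 lines. WT and KO were at 144 and 98.4 TPM for 6694c2, 295 and 214 TPM for 2838c3, 179 and 134 TPM for 6499c4 and 154 and 97.7 TPM for 6419c5. Levels after knockout were 68.3%, 72.6%, 74.7% and 63.3% of WT, a narrow range beside that of Snai2. The means were 193 ± 69.2 TPM in WT and 136 ± 54.5 TPM in KO (SD, n = 4 lines), and the genotypes overlapped across lines. The limma estimate was -0.52 (SE 0.13, 95% interval -0.82 to -0.22, unadjusted p = 0.00489, adjusted p = 0.556), or -0.37 relative to all genes, and 2 of 16 sign patterns were as far from 0 in the exact permutation test. With median-ratio scaling of the libraries it was -0.36 (unadjusted p = 0.0244, adjusted p = 0.935). Relative to all genes the within-line differences were -0.32, -0.38, -0.31 and -0.50 in 6694c2, 2838c3, 6499c4 and 6419c5.

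Among lines Elf3 was highest in 2838c3, with a mean of 254 TPM over its 2 libraries, and this line overlapped none of the others. 6499c4 (157 TPM), 6419c5 (126 TPM) and 6694c2 (121 TPM) overlapped. The F-test of the line terms passed at an adjusted limma p of 0.0221 and failed without 2838c3 (0.20), without 6499c4 (0.0529), without 6419c5 (0.0751), without both 6694c2 and 6419c5 (0.136) and with no genotype term (0.11). Elf3 levels here are of the RNA in a culture as a whole, in which fewer cells of a type and less RNA per cell cannot be told apart, as for every other gene.

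Ehf (ENSMUSG00000012350, chromosome 2, 103093778 to 103133623, minus strand, GRCm39), the ETS factor related to Elf3, had the line pattern of Twist1 and not that of Elf3. It was at 63.4 TPM in WT and 35.1 TPM in KO of 6499c4, at 7.69 and 3.12 TPM in 6419c5, at 0.966 and 0.317 TPM in 6694c2 and at 0.594 and 0.688 TPM in 2838c3. 6499c4 and 6419c5 stood apart from each other and from the remaining lines, which overlapped. The adjusted limma p of the line terms was 0.000597, 0.0103 with no filter and 0.0567 without 6499c4. KO libraries held 55.4%, 40.6% and 32.9% of WT in 6499c4, 6419c5 and 6694c2, but 116% in 2838c3. The limma estimate was -0.60 (SE 0.23, 95% interval -1.14 to -0.06, unadjusted p = 0.0346, adjusted p = 0.561), or -0.45 relative to all genes. Without both 6694c2 and 6419c5 it was -0.38.

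Grhl2 (ENSMUSG00000022286, chromosome 15, 37233280 to 37363813, plus strand, GRCm39) was at or below 0.356 TPM in all libraries. It was at 0.345 TPM in WT and 0.0482 TPM in KO of 6694c2, at 0.147 and 0.0284 TPM in 2838c3, at 0.158 and 0.0802 TPM in 6499c4 and at 0.356 and 0.355 TPM in 6419c5. In estimated reads these are 25 and 3, 10 and 2, 11 and 4, and 19 and 22. The KO library was lower in 3 lines and level in 6419c5. The fit with no filter gave a difference of -0.15 (SE 0.07, unadjusted p = 0.0777, adjusted p = 0.769) on a scale that understates the change of so low a gene.

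Esrp1 (ENSMUSG00000040728, chromosome 4, 11331933 to 11386875, minus strand, GRCm39) had 10 estimated reads in each of the WT libraries of 6499c4 and 6419c5, at 0.126 and 0.163 TPM, and at most 4 in any other. It was listed at 0 in the WT library of 2838c3 and the KO libraries of 6694c2 and 6499c4, where a count of 0 allows up to 0.0384, 0.0421 and 0.0525 TPM, for counting error only. Ovol1 (ENSMUSG00000024922, chromosome 19, 5599164 to 5610674, minus strand, GRCm39) was listed at 0 in 5 libraries, all 4 WT libraries among them. A count of 0 there allows up to 0.0785 to 0.107 TPM. It had 1 estimated read in each KO library of 6499c4 and 6419c5 and 7 in that of 2838c3, at 0.189 TPM. At this depth no difference between genotypes can be read for Esrp1 or Ovol1.

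**Figure D2:**
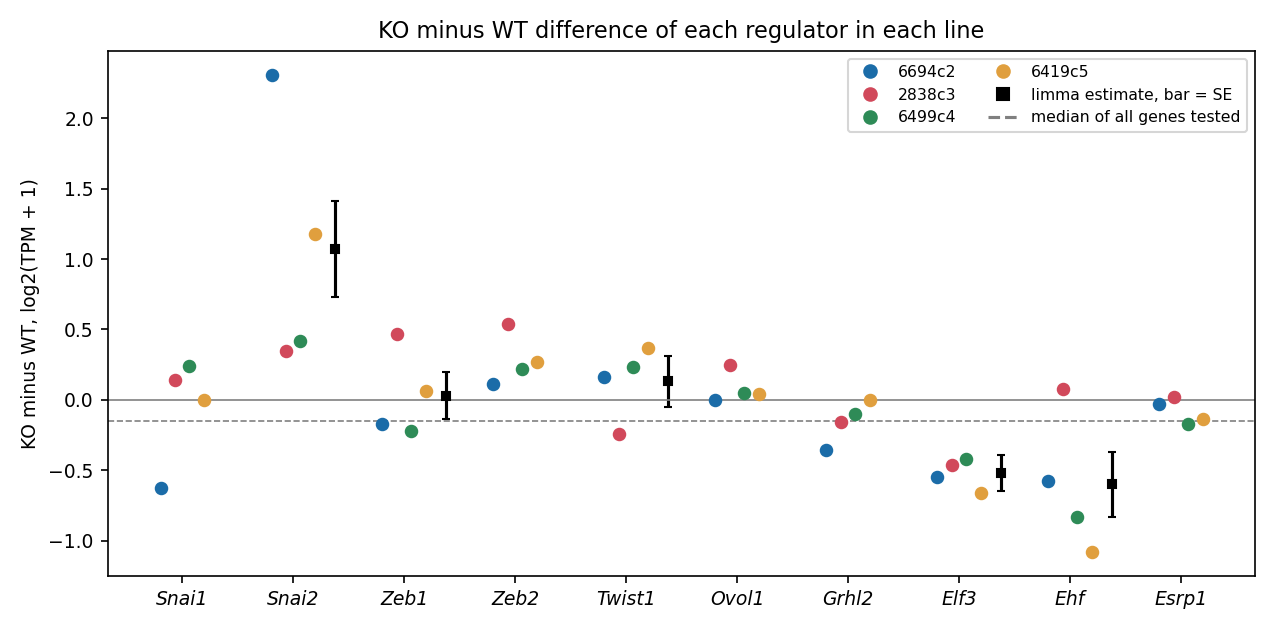
KO minus WT difference on the log2(TPM + 1) scale for each regulator, with 1 point per line; black squares are limma estimates with their SE for the 5 members tested, and the dashed line is the median of all genes tested, -0.15. Snai2 lies above 0 and Elf3 below 0 in each of the 4 lines, while Zeb1 lies on either side.

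Of the 5 members tested, 0 had an adjusted limma p under 0.05 for KO against WT, where the background is 0 of 12900 genes (0%). At an unadjusted limma p under 0.05 Elf3 and Ehf were lower in KO, where 1026 genes (7.95%) were, and Snai2 was higher, where 111 genes (0.86%) were. Elf3 was lower in each of the 4 lines, as were 18.5% of all genes, and Snai2 was higher in each of the 4, as were 1.88%. The split of all genes at an unadjusted p under 0.05 was 90.2% lower, but 54.0% with median-ratio scaling, 50.8% with quantile normalization and 79.2% with structural RNA left out. Under these 3 settings Elf3 and Ehf stayed below 0 and Snai2 above 0. The unadjusted p of Ehf was above 0.05 with median-ratio scaling (0.0513), with quantile normalization (0.092), with no filter (0.0631), with no line term (0.668), without 6694c2 (0.0723), without 6499c4 (0.137), without 6419c5 (0.146) and without both 6694c2 and 6419c5 (0.304). That of Snai2 was above 0.05 with no line term (0.109), without 6419c5 (0.0504) and without both lines (0.253), and that of Elf3 with no line term (0.134) and without both lines (0.102). Whether the KO difference of a member differs between lines could not be tested with 1 library per line and genotype.

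Paralogs of the low members were not all low. Esrp2, the other epithelial splicing regulator, was at 51.8 ± 9.50 TPM in WT and 47.1 ± 9.66 TPM in KO (SD, n = 4 lines), against at most 0.163 TPM of Esrp1. Ovol2 was at or below 0.421 TPM. Of the Grainyhead-like factors Grhl1 was at 1.07 ± 0.166 and 0.910 ± 0.383 TPM in WT and KO, and Grhl3 was at 28.6 TPM in WT and 6.88 TPM in KO of 6419c5 and at most 0.114 TPM elsewhere. Twist2 reached 4.54 and 4.42 TPM in WT and KO of 6419c5 and at most 1.22 TPM in other libraries. Esrp2, Ovol2, Grhl1, Grhl3 and Twist2 belong to the lists below and are named here after their values were seen. The table holds gene levels only, so splice forms that Esrp1 and Esrp2 control were not analysed here.

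Of 18 other EMT factors found 11 passed the filter, with a median KO minus WT of -0.08 against -0.15 over all genes. Of these 11, 1 was lower at an unadjusted limma p under 0.05 (7.95% of all genes) and 0 higher, and 0 were lower without 6694c2 or with no line term. It was Id1, an inhibitor of helix-loop-helix factors, at -0.93 (SE 0.30, unadjusted p = 0.0177, adjusted p = 0.556). The next lowest p among those lower was that of Tcf3, which encodes the E-proteins, at -0.24, and among those higher Fosl1, an AP-1 subunit, at 0.42 and Prrx2, a homeobox gene, at 0.31. Fosl1 was higher in 3 lines and lower in 2838c3. Of the 11, 3 were higher at an unadjusted limma p under 0.05 without both 6694c2 and 6419c5 (2.67% of all genes). Without 2838c3, 1 was higher (1.3%). Of 23 other epithelial factors and splicing regulators 15 passed the filter, with a median of -0.21. Of these 2 were lower at an unadjusted p under 0.05 (7.95% of all genes) and 0 higher, and 1 was lower with median-ratio scaling, with quantile normalization, without 6419c5 and without both 6694c2 and 6419c5. They were Rbm47, an RNA-binding protein, at -0.49 (SE 0.13) and the ETS factor Elf1 at -0.42 (SE 0.14). Each was lower in all 4 lines, as were Elf3 and 18.5% of all genes. The smallest p among those higher belonged to Tfap2a, at 0.50, and Cdx2, an intestinal homeobox gene, at 0.07.

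Epithelial target genes were the list with the most differences. Of 32 genes 27 passed the filter, and 10 of these were lower in KO at an unadjusted limma p under 0.05 (7.95% of all genes) and 0 higher, with a median of -0.32 against -0.15. The list median relative to all genes was -0.12 in 6694c2, -0.15 in 2838c3, -0.01 in 6499c4 and -0.45 in 6419c5. Over the lines kept it was -0.03 without 6419c5 and 0.06 without both 6694c2 and 6419c5, so the lower list median was not common to the lines. Lower in all 4 lines were 11 of the 27, against 18.5% of all genes. Ocln (occludin) had the smallest p, at -1.10 (SE 0.19), followed by Cldn7 (claudin 7), at -0.86 (SE 0.16). The others were Cdh3, Marveld3, Mal2, Tjp3, Dsp, Cdh1, Cgn and Crb3, named after their values were seen. Cdh1, the classical target of the ZEB and Snail repressors, was at 853 ± 272 TPM in WT and 626 ± 111 TPM in KO (SD, n = 4 lines), a difference of -0.41 (SE 0.16, unadjusted p = 0.0348, adjusted p = 0.561). Crb3, whose promoter with 3 E-boxes is printed above, was at 39.3 to 69.7 TPM in WT and 35.3 to 54.2 TPM in KO. On the higher side Cldn3 stood at 0.33 and Cldn4 at 0.81. The count of 10 was 6 with median-ratio scaling (2.71% of all genes), 6 without 6419c5 (5.44%), 5 without both 6694c2 and 6419c5 (5.22%) and 1 with no line term (1.36%). Genes such as Ocln, Cldn7 and Elf3 were already seen to be lower in an earlier look at these data, so the count is no independent support.

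Within the epithelial list levels were split. Krt8, Krt18 and Krt19, keratins of simple epithelium, ranged from 2528 to 8257 TPM, and Cdh1 from 541 to 1249 TPM. By contrast Rab25, St14 and Ap1m2, epithelial genes of trafficking and surface proteolysis, were at most 0.187, 1.03 and 0.0328 TPM. Epcam was at 3.12 TPM in WT and 1.21 TPM in KO of 6694c2, 1.35 and 25.1 TPM in 2838c3, 12.0 and 9.15 TPM in 6499c4 and 44.9 and 27.1 TPM in 6419c5, so its 2838c3 KO library stood against the direction of the other lines. These genes were chosen after their values were seen. Rab25 and Ap1m2 thus lay in the range of Grhl2, Esrp1 and Ovol1 while Krt8, Krt18, Krt19 and Cdh1 lay above Elf3, in the same libraries. Krt7 did not in 6694c2, where it was at 35.3 and 21.6 TPM in WT and KO.

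**Figure D3:**
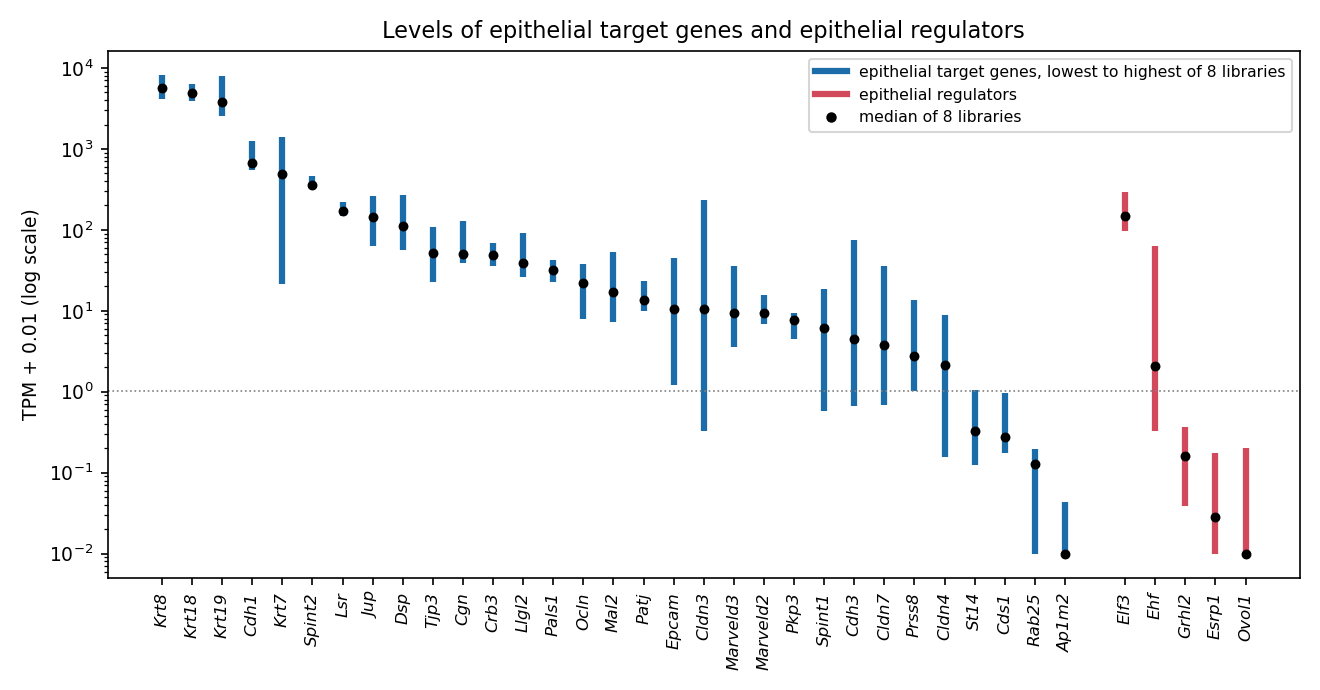
TPM (with 0.01 added, log scale) of epithelial target genes detected in at least 1 library, in order of their median and, on the right, of 5 epithelial regulators; bars run from the lowest to the highest of the 8 libraries and points mark the median. Krt8, Krt18 and Krt19 reach at least 2528 TPM while Rab25, Ap1m2, Grhl2, Esrp1 and Ovol1 stay below 1 TPM.

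Of 28 mesenchymal target genes 17 passed the filter, with a median KO minus WT of 0.06 against -0.15, and 0 were higher or lower at an unadjusted limma p under 0.05. Above the median of all genes were 13 of the 17. The smallest p among those higher belonged to Inhba, an activin subunit, at 0.89 and Acta2, smooth muscle actin, at 0.49, and among those lower to Cdh2 (N-cadherin) at -0.35 and Axl, a receptor kinase, at -0.22. The list median relative to all genes was -0.65 in 6694c2, 0.55 in 2838c3, 0.80 in 6499c4 and 0.14 in 6419c5, so it lay below all genes in the line where Snai2 differed most. Of the 17, 6 were higher at an unadjusted p under 0.05 without both 6694c2 and 6419c5 (2.67% of all genes), 3 without 6694c2 (1.12%) and 1 with median-ratio scaling (2.3%), and without 2838c3 the relative median was -0.03. Vim, the mesenchymal filament gene, was at 1035 to 2296 TPM in the 8 libraries, while of the fibrillar collagen genes Col1a2 and Col3a1 did not exceed 0.275 and 1.27 TPM, Col1a1 was at 1.502 to 5.62 TPM and Col5a1 at 0.500 to 6.75 TPM.

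Of 12 genes of the TGF-beta arm, a main inducer of EMT, 10 passed the filter, with a median of -0.08. The receptor gene Tgfbr2 was the 1 lower at an unadjusted limma p under 0.05 (7.95% of all genes), at -0.48 (SE 0.16), followed by Smad2, a signal transducer, at -0.20, and 0 were higher. The count lower was 0 with median-ratio scaling, with quantile normalization, without 6419c5 and without both 6694c2 and 6419c5, and 1 gene was higher under each of these scalings. Tgfb1, the ligand gene, had the smallest p among those higher, at 0.27, followed by Smad4 at 0.07. All 13 genes of the corepressor and cofactor list passed the filter, with a median of -0.18. Hdac1, a histone deacetylase recruited by Snail, was the 1 lower at an unadjusted limma p under 0.05 (7.95% of all genes), at -0.48 (SE 0.18). The count lower was 0 with median-ratio scaling, quantile normalization or structural RNA left out. It was also 0 with no line term, without 6694c2 and without both 6694c2 and 6419c5. Ctbp1, the corepressor of ZEB factors, stood at -0.29. Of 7 genes whose splicing Esrp proteins control 5 passed the filter, with a median of -0.15 at gene level, and 0 reached an unadjusted p under 0.05. Slk, a kinase gene, had the smallest p in that list, at -0.27, followed among those lower by Ctnnd1 at -0.17, and Enah stood at 0.10 and Arhgef11 at 0.07.

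**Figure D4:**
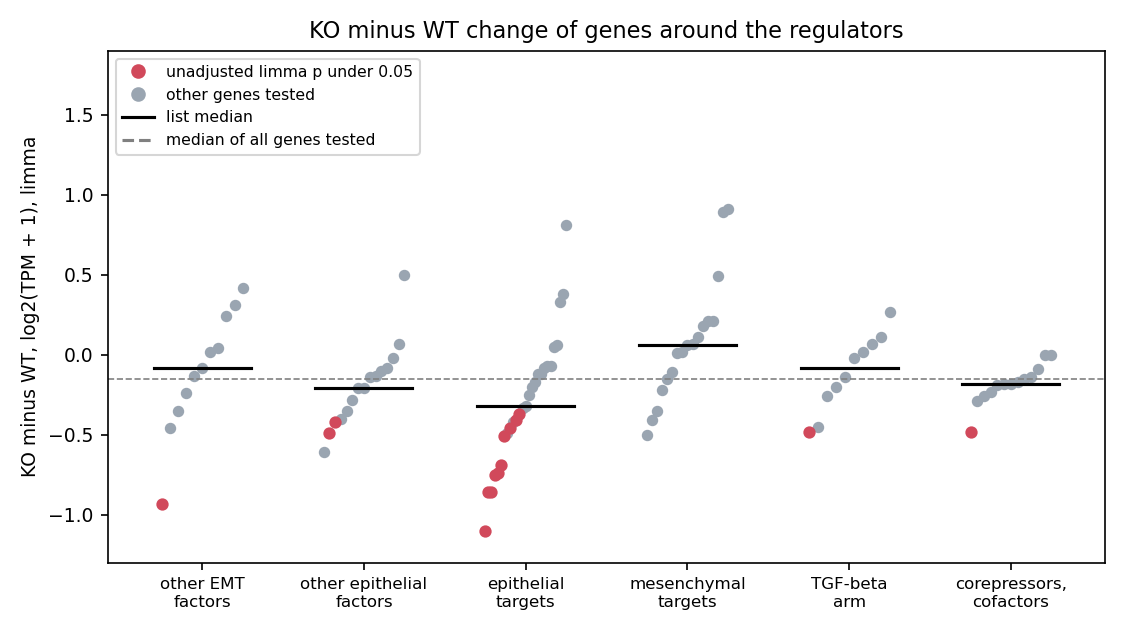
KO minus WT limma estimate on the log2(TPM + 1) scale of each tested gene in 6 lists around the regulators; red points have an unadjusted limma p under 0.05, black bars are list medians and the dashed line is the median of all genes tested. The epithelial targets have 10 red points, all below 0, and the mesenchymal targets have none.

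The pattern over the 8 libraries that was most like that of each tested member was described by Pearson's r of log2(TPM + 1) with 7123 genes that span at least 1 on this scale. The points share libraries in pairs of the same line, and with 8 points high values are common among so many genes. For Twist1 the closest were Cldn3 (r = 0.99), Megf10 (0.987) and C1qtnf12 (0.976). Cldn3, a claudin of epithelial tight junctions, was at 153 and 233 TPM in WT and KO of 6499c4, 20.1 and 30.0 TPM in 6419c5 and at most 0.783 TPM in the other lines. A factor known for repressing junction genes and this 1 junction gene were thus highest in the same line. Junction and polarity genes were not uniform in this. Cldn7 and Crb3 were also highest in 6499c4, but Cdh1 and Cgn were highest in the 2838c3 WT library, at 1249 and 127 TPM. Dsp was lowest in 6499c4, at 63.7 and 55.6 TPM in WT and KO. Ehf and Twist1 had an r of 0.97 with each other. Twist1, Ehf and Cldn3 each reached 1 TPM only in the 4 libraries of 6499c4 and 6419c5. They passed the filter through those lines alone, so a high r among them follows in part from the filter. For Ehf the closest were Hba-a1 (0.994), Galnt4 (0.991) and Il17re (0.988), where Hba-a1 is uncertain because a near-identical copy can share its reads. Galnt4, an enzyme that starts O-glycans, was at 186 and 105 TPM in WT and KO of 6499c4, 32.1 and 22.7 TPM in 6419c5 and at most 13.5 TPM in the others.

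**Figure D5:**
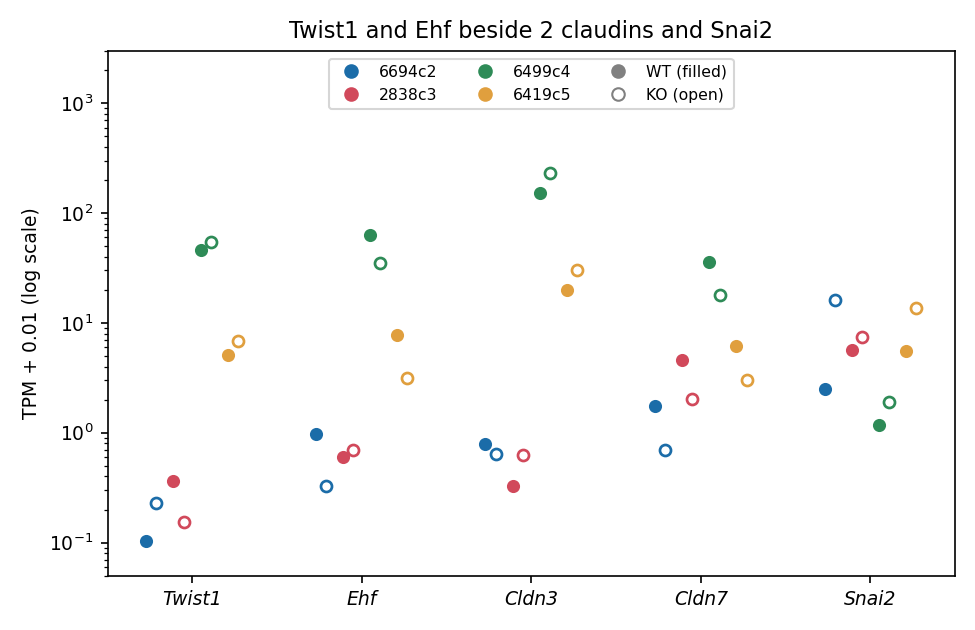
TPM (with 0.01 added, log scale) of Twist1, Ehf, the claudin genes Cldn3 and Cldn7 and Snai2 in the 8 libraries; filled points are WT and open points KO, coloured by line. Twist1, Ehf, Cldn3 and Cldn7 are highest in 6499c4 while Snai2 is lowest there. Other junction genes, such as Cdh1 and Dsp, were not highest in 6499c4 and are not shown.

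For Elf3 the closest were Faah (r = 0.98), Aggf1 (0.956) and Pik3ap1 (0.945). Faah, a fatty acid amide hydrolase, was at 3.39 to 10.7 TPM, with its highest libraries in 2838c3 like those of Elf3. For Zeb1 they were Rnf24 (0.952), Zc2hc1a (0.942) and Katnal1 (0.933), all highest in the 2838c3 KO library. For Snai2 they were Cdr2 (0.965), Tbrg1 (0.95) and Nupr1 (0.937). Nupr1, a stress-inducible nuclear protein, was at 53.5 and 126 TPM in WT and KO of 6694c2 and 88.7 and 134 TPM in 2838c3. It was at 46.7 and 58.4 TPM in 6499c4 and 75.3 and 168 TPM in 6419c5. Nupr1 and Tbrg1 were higher in KO in each line as Snai2 was, but Cdr2 was lower in KO of 6499c4, at 6.19 and 4.86 TPM in WT and KO. Genes picked by their r with Snai2 share much of its pattern by that choice.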

How the data were processed

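The authors deposited 1 table of TPM, length-scaled transcript shares that sum to 1000000 in each of the 8 libraries. DESeq2 2.11.40.8, featureCounts 2.1.1, STAR 2.7.11b and cutadapt 5.1 are named in the submitters' processing notes, which give mm39 as build. The gene lengths behind TPM are not stated there. GENCODE vM39 (GRCm39, another name of mm39) gave names and positions.

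Genes with at least 1 TPM in at least 4 libraries (12900) were fitted with limma 3.58.1 in R 4.3.3 on log2(TPM + 1), with line and genotype as terms and a variance trend. The genotype term and the line terms (F-test) were each adjusted by Benjamini-Hochberg over all genes, with a threshold of 0.05. The 2 libraries of a line share their origin, so line entered as a block, and same-line libraries deviated together from their genotype means (r from 0.42 to 0.79). Labels do not say that cultures were repeated. The p-value for genotype sets the mean KO minus WT difference against the spread of that difference over the 4 lines. In limma the spread of each gene is first drawn toward the trend over all genes tested. The SE, interval and p of a gene thus do not rest on its own spread alone, and can be smaller or larger than that spread gives. The F-test of the line terms sets the lines against the same residual spread, with the WT and KO libraries as the 2 values of a line. This step was tested on simulated data.

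Depth was estimated as the step at which low TPM times exon length become whole reads, in genes with 1 transcript, where 93.17% to 94.07% of values came within 0.1 of whole. This was also tested on simulated data. For 5 members with low libraries (Snai1, Twist1, Ovol1, Grhl2 and Esrp1) the gene length was fitted, so their reads are estimates. Whether mates of a pair were counted separately is not known.

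The members and lists were chosen with earlier results of these data known. In each list, the genes of smallest unadjusted p in each direction are named, up to 2 each. Of the lists, 2 held other EMT factors and other epithelial factors. The rest held epithelial targets, mesenchymal targets, the TGF-beta arm, ESRP splicing targets and corepressors. Alternatives were other pseudocounts, filters, scalings and model terms, and lines left out. Tables and figures used Python 3.11.15, pandas 2.3.3, numpy 2.4.6 and matplotlib 3.10.9. Results of some other genes are not reported here.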

Additional observations from a re-analysis of the deposited data

Results flagged for a closer look

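In each genotype the 4 lines were compared for a library far from the others, over 19 groups of 4 values. The comparison used TPM without a logarithm. By chance about 1 in 20 such groups is flagged if values are normally distributed, which TPM over lines need not be. So the flags are not set against a chance rate here, and the comparison was not made on the log2(TPM + 1) scale. Twist1 in 6499c4 stood apart in both genotypes, at 45.9 TPM in WT against 5.101 TPM in the next library and at 54.1 TPM in KO against 6.87 TPM. Ehf did so in the same line, at 63.4 TPM in WT against 7.69 TPM and at 35.1 TPM in KO against 3.12 TPM. Grhl2 in the KO library of 6419c5 stood apart at 0.355 TPM against 0.0802 TPM, from 22 and 4 estimated reads.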

How the results depend on the processing

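For KO against WT 0 of the genes tested passed under the fit as reported and under each of 13 alternatives, the fit with no replicate block among them, where 210 genes had an unadjusted p under 0.05 against 1137 as reported. Elf3 and Ehf kept a negative and Snai2 a positive estimate in each alternative that gave one, from -0.554 to -0.362, -0.829 to -0.376 and 0.383 to 1.305; Ehf was not tested with a TPM minimum of 5. Zeb1 ranged from -0.112 to 0.117 with 1 line left out, turning without 2838c3, and Twist1 was at -0.003 without both 6694c2 and 6419c5; the cause was not tested. The count of genes that differ between lines ranged from 871 (without 6499c4) and 903 (without 6419c5) to 3708 (without 2838c3) with 1 line left out, against 2178, and was 944 without both lines. With no line term no test between lines exists, so the fit with no genotype term stood in its place (2018 genes). With a pseudocount of 0.1, 18 within-line differences of Snai1, Zeb2, Twist1, Ovol1, Grhl2, Ehf and Esrp1 moved. The other 7 of 25 that moved were of Elf3 under other scalings, where it was at -0.31 with median-ratio scaling in 6694c2 (-0.55 as reported) and at -0.27 with quantile normalization in 2838c3 (-0.46). Depth limits Grhl2, Esrp1, Ovol1, Snai1 and, in 2838c3 and 6694c2, Twist1.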

Other observations

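Factors beside the members also separated lines. Cdx2, an intestinal homeobox factor, was at 245 TPM in WT and 163 TPM in KO of 6419c5 and 127 and 114 TPM in 6499c4, against 14.7 and 12.8 TPM in 6694c2 and 1.86 and 5.65 TPM in 2838c3 (adjusted limma p of the line terms 0.000912). Tfap2a went the other way for 6499c4, at 0.220 and 0.0681 TPM there against at least 2.15 TPM in the other lines (adjusted limma p of the line terms 0.0104). Sox11 was at 5.69 and 9.82 TPM in WT and KO of 2838c3 and at most 0.0572 TPM in the other libraries. Grhl3 and Twist2 were highest in 6419c5. Each was picked after its values were seen.

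Fn1 (fibronectin), a mesenchymal target, was at 129 and 1054 TPM in WT and KO of 2838c3 and at 199.9 and 40.6 TPM in 6694c2. With 1 library per line and genotype this difference between lines was not tested.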
